A study of Drosophila melanogaster with 6 samples.

Results

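The proteasome subunit genes of Drosophila melanogaster were examined in heat-treated larvae with and without excess DHR96, the nuclear receptor encoded by Hr96. Members were the probe sets whose gene symbol in the platform annotation begins with Rpn, Rpt, Prosalpha or Prosbeta followed by a number, a choice that uses no measured value. This gave 41 of the 18952 probe sets, which list 42 of 12551 genes, since 1 probe set is annotated to both Prosalpha1 and Prosalpha1R and is described here under both names. Of the members 7 belong to the alpha ring, 6 to the beta ring, 4 to the Rpt ATPases and 10 to the Rpn non-ATPase subunits, and 14 are paralogues with an R or T after the subunit number. The reference annotation holds 48 genes with such symbols. Prosbeta1, Rpn9, Rpn10, Rpt1, Rpt6 and Rpt6R were not analysed here.

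The proteasome is the large protease that degrades proteins tagged with ubiquitin. Its core particle is a barrel in which outer rings of alpha subunits gate entry to inner rings of beta subunits, some of which carry the proteolytic sites. The regulatory particle caps the barrel: Rpt subunits form an ATPase ring that unfolds substrates, and Rpn subunits bind, deubiquitinate and position them. Heat produces misfolded proteins that this system removes, and in Drosophila the transcription factor encoded by cnc is known to raise proteasome genes together when proteasome activity is short.

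Messenger RNA was measured on 6 oligonucleotide arrays, from whole larvae with all their tissues, early in the third instar and fed on baker's yeast. The 3 gain samples came from 1 transgenic line, made in the w1118 strain by P-element transformation, in which heat switches on a transgene with the whole DHR96 cDNA. The 3 control samples came from w1118 larvae with no transgene. Gain and control larvae alike spent 1 h at 37.5 °C, beginning 3 h after the moult into the third instar, and RNA was taken 4 h later. Every array thus came from heated larvae, so the effect of heat itself was not measured, and the insertion and the strain background of the single line cannot be told apart from DHR96. Nothing in the labels gives the replicates separate cultures, so p-values measure only the spread between these samples.

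Hr96 itself checked the labels: its log2 signal was 14.73, 14.71 and 14.64 on the gain arrays, against 9.47, 9.82 and 9.50 on the control arrays. On each array 44.4% to 44.8% of probe sets reached a log2 value of 4, the floor of the filter. The summed signal of 6 midgut markers ran from 58479 to 63805 intensity units on gain arrays and from 89122 to 93770 on control arrays. Of these betaTry, a trypsin gene, was called lower, with log2 signals of 5.40, 3.01 and 4.59 on the gain arrays, against 14.50, 14.58 and 14.65 on the control arrays (limma adjusted p = 0.00123). Without it the midgut sum ran from 58472 to 63782 on gain arrays and from 66016 to 68034 on control arrays, still without overlap. The sum of 4 fat body markers ran from 45164 to 48445 on gain arrays and from 49523 to 64736 on control arrays, and none of the 4 was called. Each of the 4 overlapped between the groups on its own, with 3 negative log2 differences and 1 positive, that of Fbp1 at 0.45. The sums of muscle, haemocyte, neuron and germ cell markers overlapped, and the lists of neuron and germ cell markers each had 3 of 5 genes below the floor on every array. The part of tissue make-up in the members' differences was not tested. The median log2 difference of all 7974 tests, gain minus control, was -0.15.

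All 27 canonical subunit probe sets gave strong signals, with log2 intensities from 10.84 to 13.20, and none differed between gain and control larvae past the threshold. The test was limma with Benjamini-Hochberg adjustment over all 7974 tests, which called 3.93% of them at an adjusted p under 0.05, 0.451% as higher in gain larvae and 3.47% as lower. The members' adjusted p ran from 0.243 to 0.993, and none had an unadjusted p under 0.05, against 21.1% of all tests. Among the 1704 tests with a mean log2 of at least 11, where all members lie, 285 had an unadjusted p under 0.05. The members' log2 differences ran from -0.29 to 0.35, with a median of -0.12. The median 95% interval reached 0.35 to either side, and the intervals of the 27 members lay between -0.70 and 0.71. In RNA from whole larvae, fewer cells of a type and less RNA per cell cannot be told apart. Of the 27 differences 25 were negative on the deposited scale, but 25 were positive after median centring of the arrays, 19 after median difference centring and 15 after quantile normalization. The groups did not overlap for 3 of the 27 members, against 30.7% of all tests.

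**Figure D1:**
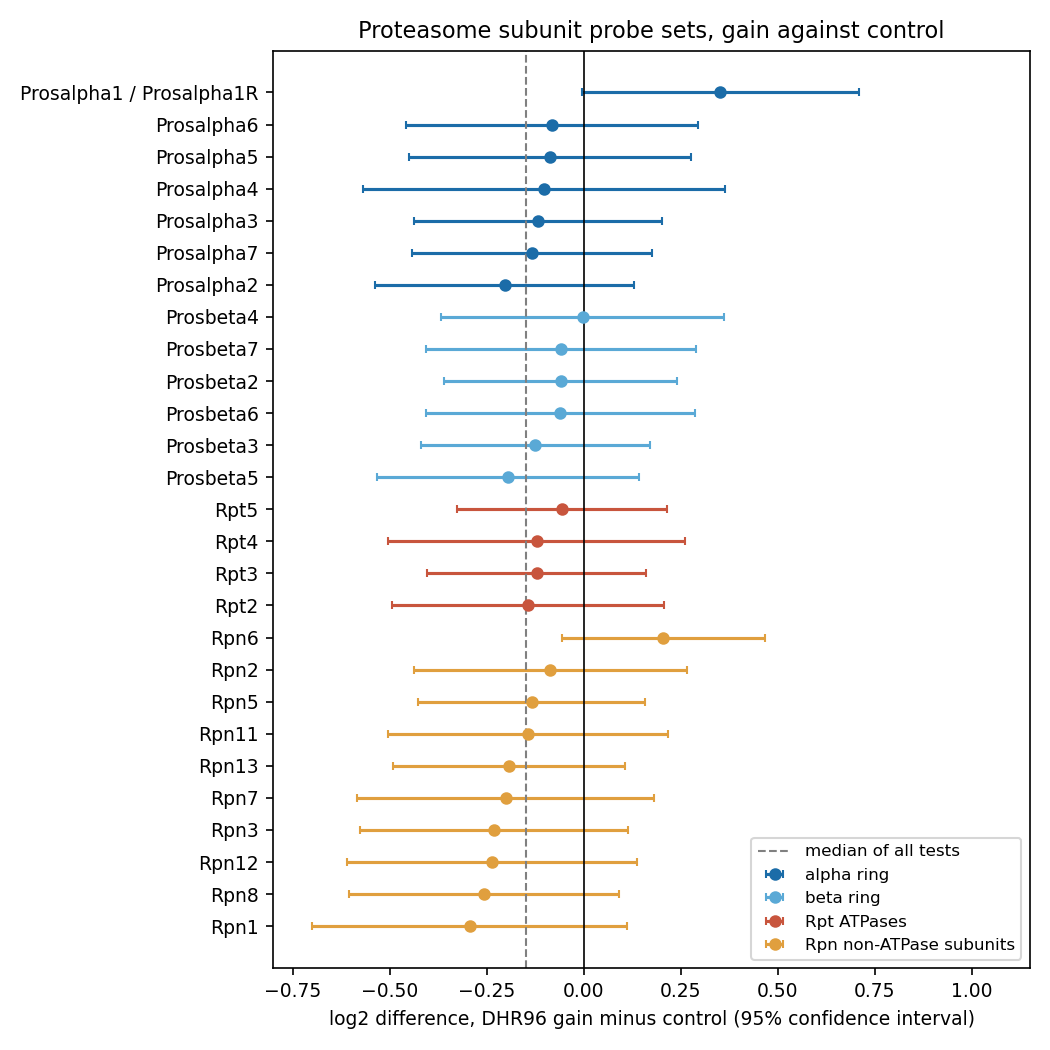
Log2 difference of gain minus control larvae for the 27 proteasome probe sets above the floor, as points with 95% confidence intervals from limma (n = 3 arrays per group), coloured by subcomplex. Every interval includes 0, and the dashed line marks the median of all tests at -0.15.

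In the alpha ring, which gates the barrel, the probe set annotated to Prosalpha1 and Prosalpha1R stood apart from the other 6. Its log2 signal was 13.08, 12.81 and 13.20 on the gain arrays, against 12.57, 12.59 and 12.88 on the control arrays. The groups overlapped, because gain 2 lay below control 3, and the difference came to 0.35 ± 0.15 (log2, SE, n = 3 per group, limma adjusted p = 0.243). The genes Prosalpha1 and Prosalpha1R are near neighbours in the reference annotation, with 1 coding gene between them, and the array does not separate their transcripts.

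The remaining alpha subunits had negative differences on the deposited scale. Prosalpha2, the next largest in size, had 12.61, 12.25 and 12.67 on the gain arrays, against 12.65, 12.72 and 12.77 on the control arrays, or -0.20 ± 0.14 gain minus control (SE, limma adjusted p = 0.441). Gain 2 was the low array, gain 1 lay just under the lowest control and gain 3 within the control range. Prosalpha7 had 12.55, 12.46 and 12.76 in gain larvae, against 12.61, 12.69 and 12.88 in control larvae, a log2 difference of -0.13. Prosalpha6, the smallest, had 12.24, 11.95 and 12.41 in gain larvae, against 12.14, 12.24 and 12.46 in control larvae, a log2 difference of -0.08. These groups overlapped. The signs of Prosalpha6 and Prosalpha7 turned under median centring and median difference centring, that of Prosalpha6 under quantile normalization too, and that of Prosalpha2 under median centring.

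The beta ring had 6 log2 differences, all between -0.19 and -0.003. Prosbeta5, the chymotrypsin-like catalytic subunit, had log2 signals of 12.84, 12.62 and 13.00 on the gain arrays, against 12.91, 12.95 and 13.18 on the control arrays. Its difference was -0.19 ± 0.14 (SE, n = 3 per group, limma adjusted p = 0.466), with the gain 3 value inside the control range. Prosbeta3, a subunit with no catalytic site, had 12.66, 12.42 and 12.77 in gain larvae, against 12.68, 12.74 and 12.80 in control larvae. Its log2 difference was -0.12. Prosbeta6, also without a catalytic site, had 12.58, 12.23 and 12.69 in gain larvae, against 12.47, 12.59 and 12.62 in control larvae. Prosbeta4, another subunit of that kind, had 12.46, 12.22 and 12.64 in gain larvae, against 12.28, 12.42 and 12.62 in control larvae, a log2 difference of -0.003 ± 0.15. For both Prosbeta6 and Prosbeta4 the gain arrays spanned the whole control range. Prosbeta2, the trypsin-like catalytic subunit, lay among the other members described by their range. The sign of Prosbeta5 turned under median centring, that of Prosbeta3 under median centring and median difference centring, and those of Prosbeta6 and Prosbeta4 under those scalings and quantile normalization.

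The Rpt ATPases unfold substrates, and in yeast the tails of Rpt2, Rpt3 and Rpt5 dock into the alpha ring and open its gate. Rpt2 had log2 signals of 11.57, 11.36 and 11.76 on the gain arrays, against 11.58, 11.65 and 11.88 on the control arrays, a difference of -0.14 ± 0.15 (SE, n = 3 per group, limma adjusted p = 0.614). Rpt3 had 11.65, 11.49 and 11.74 in gain larvae, against 11.67, 11.68 and 11.88 in control larvae. Rpt4, another ATPase of the ring, had 11.13, 10.84 and 11.33 in gain larvae, against 11.12, 11.14 and 11.41 in control larvae. The differences of Rpt3 and Rpt4 were both -0.12 on the log2 scale, and in each the gain 1 and gain 3 arrays lay among or next to the controls. Rpt5 had 11.64, 11.53 and 11.73 in gain larvae, against 11.60, 11.65 and 11.83 in control larvae, a log2 difference of -0.06 ± 0.11. All 4 signs turned under each of the 3 rescalings of the arrays named above, with Rpt2 at only 0.0042 under median difference centring.

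The Rpn subunits held the lowest differences of the complex and also Rpn6, singled out after its values were seen. Rpn1, the scaffold that receives ubiquitin shuttle proteins, had log2 signals of 11.35, 10.84 and 11.39 on the gain arrays, against 11.41, 11.47 and 11.59 on the control arrays. Rpn8, the partner of the deubiquitinase Rpn11, had 11.78, 11.41 and 11.86 in gain larvae, against 11.88, 11.91 and 12.04 in control larvae. For these 2 genes every gain array lay below every control array, an arrangement found in 25.2% of all tests. The log2 differences were -0.29 ± 0.17 for Rpn1 and -0.26 ± 0.14 for Rpn8 (SE, n = 3 per group), with limma adjusted p of 0.370 and 0.362. Without gain 2, the difference of Rpn1 was -0.12 and that of Rpn8 -0.12. Rpn12, a lid subunit, had 11.95, 11.65 and 12.13 in gain larvae, against 12.05, 12.09 and 12.32 in control larvae, a log2 difference of -0.24 that turned positive under median centring. Rpn2, the other large scaffold, had 12.53, 12.22 and 12.64 in gain larvae, against 12.43, 12.51 and 12.71 in control larvae. Its difference of -0.09 on the log2 scale turned positive under all 3 rescalings.

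Rpn6, the lid subunit that braces the regulatory particle against the core, had the only positive difference among the 10 Rpn probe sets. Its log2 signal was 12.41, 12.21 and 12.25 on the gain arrays, against 12.04, 12.02 and 12.19 on the control arrays. All 3 gain arrays lay above all 3 control arrays, as in 5.49% of all tests, by a narrow margin between gain 2 and control 3. The log2 difference was 0.21 ± 0.11 (SE, n = 3 per group, limma adjusted p = 0.339), and it was positive under each setting tried. The other 10 members, Prosalpha3, Prosalpha4, Prosalpha5, Prosbeta2, Prosbeta7, Rpn3, Rpn5, Rpn7, Rpn11 and Rpn13, had log2 differences from -0.23 to -0.06 and limma adjusted p from 0.402 to 0.850.

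The members varied together from array to array within each group. Relative to the mean of the 6 arrays, their median log2 deviation was -0.01, -0.29 and 0.10 on gain 1, 2 and 3, against -0.04, 0.02 and 0.20 on control 1, 2 and 3. For all tests the same medians were -0.004, -0.27 and 0.04 on the gain arrays, against 0.06, 0.06 and 0.09 on the control arrays. Gain 2 was therefore low for the members and for all tests alike, whereas control 3 was high for the members by more than for all tests. Some gene lists described below had a similar median on control 3. It was 0.19 for the COP9 signalosome, 0.19 for the TER94 list and 0.16 for the proteasome assembly factor list. Others did not, with 0.03 for eIF3, 0.0006 for ubiquitin, E1 and E2 genes, 0.02 for the cnc list and -0.02 for the heat shock list. Gain 2 gave the lowest gain value for 27 of the 27 members, against 79.7% of all tests. Control 3 gave the highest control value for 26 of the 27, Rpn5 being the exception, against 46.4% of all tests. The SD between gain arrays exceeded that between control arrays for 26 of the 27 members, or 96.3%, against 67.2% of all tests. Without gain 2 the members' median log2 difference was -0.02, and without gain 2 and control 3 it was 0.05, beside -0.05 and -0.03 for all tests.

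**Figure D2:**
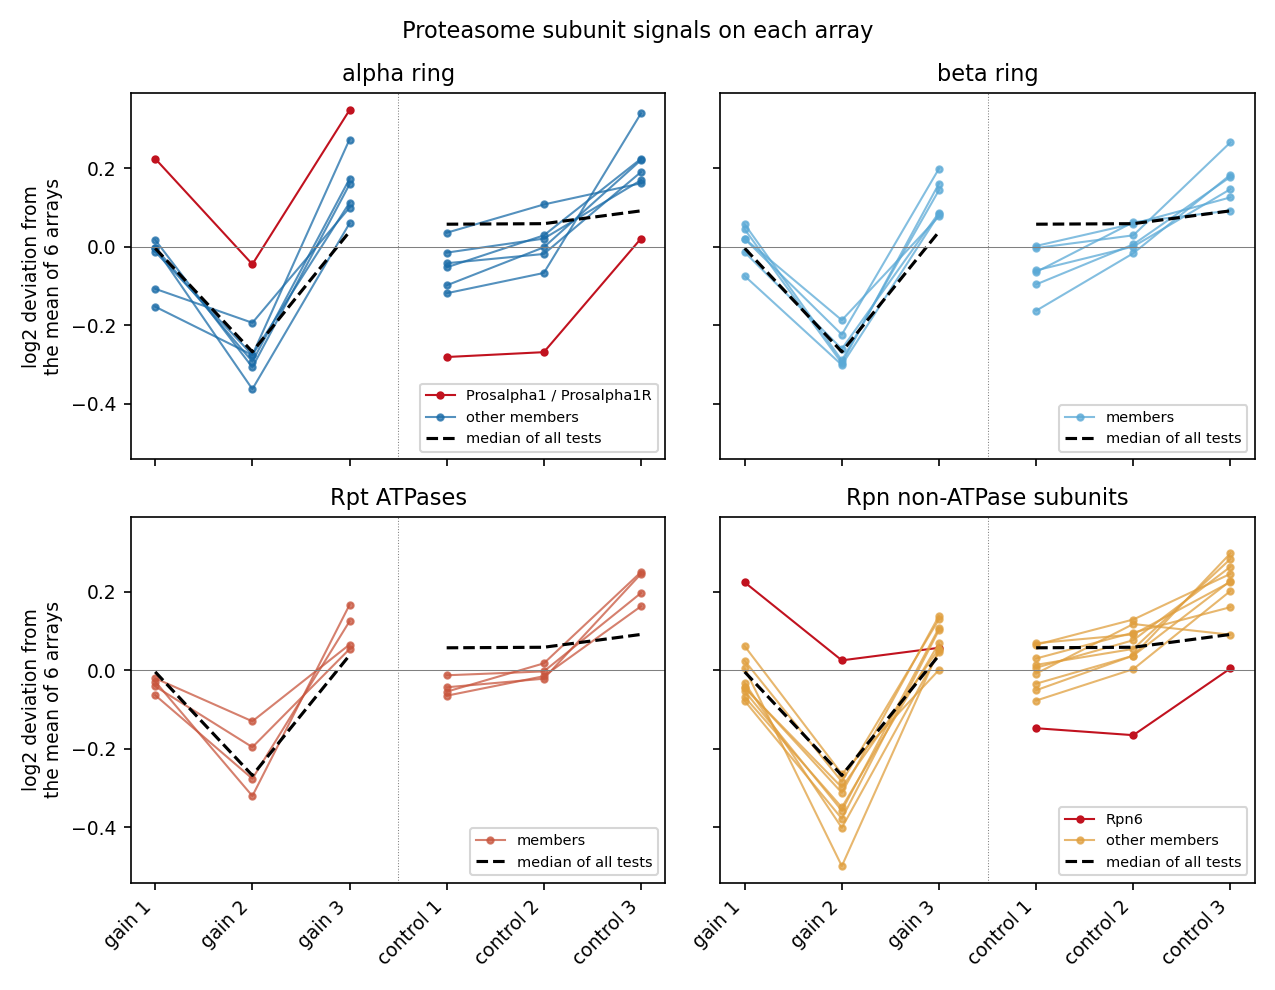
Log2 deviation of each proteasome probe set from its own mean over the 6 arrays, in panels by subcomplex, with gain arrays left of control arrays and lines that join the values of 1 probe set within a group. The members share a low on gain 2 and a high on control 3; the dashed line is the median of all tests, and the Prosalpha1/Prosalpha1R probe set and Rpn6 are in dark red.

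In the list of heat shock and chaperone genes, signals also differed between arrays of a group, with no order common to all. Hsp68, an inducible chaperone of the Hsp70 family, had log2 signals of 14.92, 13.72 and 13.12 on the gain arrays, against 13.92, 14.24 and 12.86 on the control arrays. Gain 3 and control 3, the arrays with the highest median of proteasome members in their groups, were the lowest in their groups for Hsp68 but not for the list as a whole. Over the 12 heat shock and chaperone genes tested, gain 3 gave the highest gain value for 6 and the lowest for 4. Gain 2 gave the lowest gain value for 7, against 79.7% of all tests. Control 3 gave the highest control value for 6 and the lowest for 5. The median deviation of the 8 CCT subunits, which form the cytosolic chaperonin, was -0.02, -0.23 and 0.05 on the gain arrays, against -0.003, -0.03 and 0.24 on the control arrays, with gain 2 low and control 3 high. The part of these genes in the members' array pattern was not tested.

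Because the shift of a whole array enters every member, the members were also set against each other on the same array, a comparison chosen after the data were seen. When each array was shifted by its median over the 27 members, the Prosalpha1/Prosalpha1R probe set lay 0.23, 0.24 and 0.24 above its 6-array mean on the gain arrays, and its control values were -0.24, -0.29 and -0.18. The groups were well apart on this scale, 0.48 ± 0.10 log2 units higher in gain larvae (SE, n = 3 per group, limma adjusted p = 0.0401), where 4.24% of all tests were called. This adjusted p does not account for a scale built from the members themselves and chosen after the data were seen. The probe set also passed after median centring (log2 difference 0.60, limma adjusted p = 0.0302, with 5.68% of tests called) and median difference centring (0.50, 0.0448 and 5.98%), and not after quantile normalization (0.47, 0.0734 and 5.47%). It passed too without control 3 and gain 2 (0.56, 0.0333 and 9.53%) and, together with Rpn6, with array weights, a setting that called 32.2% of all tests. Control 3 and gain 2 were the arrays that made its groups overlap on the deposited scale. Leaving them out therefore widens its gap by construction and is no separate support. Rpn6 on the scale of the members' median had 0.23, 0.31 and -0.05 on the gain arrays, against -0.11, -0.19 and -0.20 on the control arrays. Its log2 difference there was 0.33 ± 0.13 and did not pass (limma adjusted p = 0.210). A count of 1 in 27 is 3.70%, which lies below the share of all tests called under each of these scalings, and the count says nothing particular to the subunits.

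The median of the regulatory particle, and within it of the Rpn subunits, lay slightly lower against the core particle in gain larvae. Single Rpn subunits were not uniform. On the scale of the members' median, Rpn6 and Rpn2 lay higher in gain larvae, by 0.33 and 0.04 log2 units. The other Rpn subunits ran from -0.17 for Rpn1 to -0.009 for Rpn5, and no Rpn subunit passed (limma adjusted p of 0.210 and above). The median log2 difference was -0.14 over the 14 Rpt and Rpn probe sets and -0.09 over the 13 alpha and beta probe sets. On single arrays, the median deviation of the regulatory particle minus that of the core was -0.03, -0.03 and -0.08 on gain 1, 2 and 3, against 0.04, 0.03 and 0.05 on control 1, 2 and 3. The groups did not overlap. The same held for the Rpn subunits alone: set against the beta ring, they lay at -0.0575, -0.0556 and -0.0524 on the gain arrays, against 0.0615, 0.0482 and 0.0642 on the control arrays. The means were -0.0552 ± 0.00257 in gain larvae and 0.0580 ± 0.00859 in control larvae (SD, n = 3 each), a difference of -0.11 on the log2 scale. Without Rpn6 this difference was -0.13. Each deviation is taken from a mean of 6 arrays, so the opposite signs of the 2 groups come largely from the centring. How often such contrasts separate in other sets of genes was not computed. Among single tests on the deposited scale, the groups did not overlap in 30.7%. Set against the Rpt ATPases of the same particle, the Rpn subunits lay at -0.002, -0.09 and -0.03 on the gain arrays, against 0.05, 0.07 and 0.005 on the control arrays. These groups did not overlap either, by a narrow margin between gain 1 and control 3, and the difference was -0.09. The Rpt ATPases set against the beta ring overlapped between the groups, with means of -0.01 in gain larvae and 0.02 in control larvae, as did the alpha ring against the beta ring, with 0.007 in gain larvae and 0.006 in control larvae.

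The median difference of all tests also varied with signal level, being -0.13 for the 665 tests with mean log2 signals from 11 to 12 and -0.10 for the 421 from 12 to 13. Between 12 and 13 lay 12 core and 7 regulatory probe sets, with medians of -0.08 and -0.14. Between 11 and 12 lay the other core probe set and 7 regulatory ones, at -0.10 and a median of -0.14. The part of signal level in the gap between the particles was not tested. No p-value is given, since the contrast is a score over the members.

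**Figure D3:**
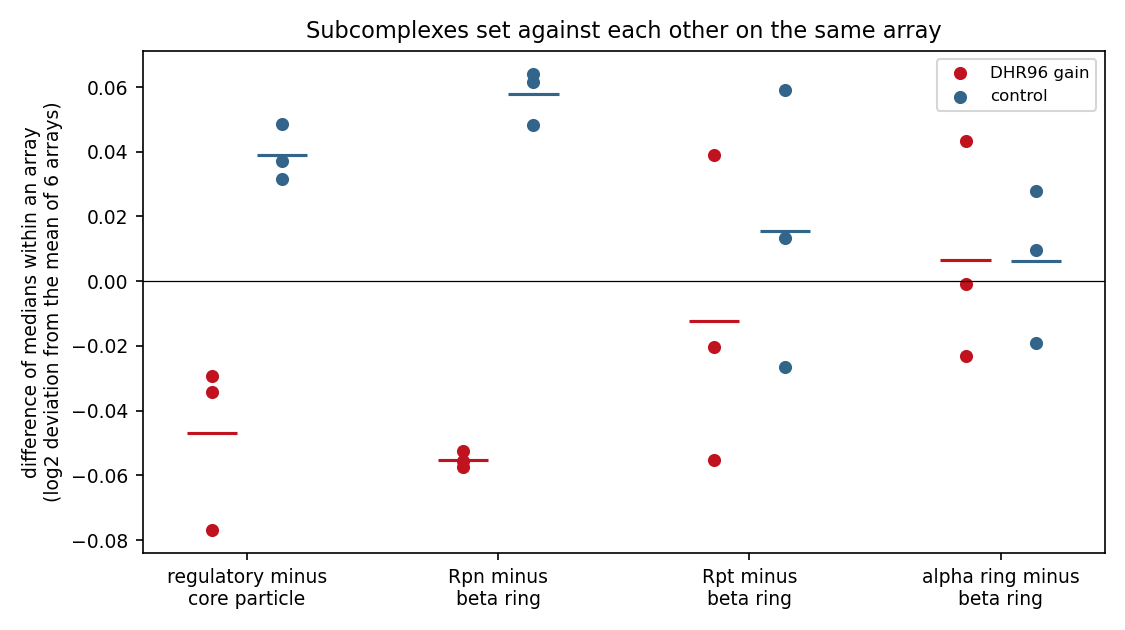
Median log2 deviation of 1 subcomplex minus that of another on the same array, with gain arrays left of control arrays in each pair, points for arrays and bars for group means (n = 3 each). The gain and control points do not overlap for the regulatory minus the core particle or for Rpn minus the beta ring, and overlap for the Rpt ATPases and the alpha ring against the beta ring.

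The 14 paralogues gave no signal above the floor on any array. These were Prosalpha3T, Prosalpha4T1, Prosalpha4T2, Prosalpha6T, Prosbeta2R1, Prosbeta2R2, Prosbeta4R1, Prosbeta4R2, Prosbeta5R1, Prosbeta5R2, Rpn12R, Rpn13R, Rpt3R and Rpt4R, with log2 intensities from 1.84 to 3.54. Several of them, among them Prosalpha6T, are known from the male germline of Drosophila. All these values lie below the floor and were not tested, so no difference between gain and control larvae is given. Of 28 male germline marker genes 20 lay below the floor on all arrays, among them aly, can, sa, dj and Mst87F, which mark spermatocytes and later germ cells. The summed intensity of the 28 ran from 290.1 to 323.3 units on gain arrays and from 378.4 to 420.3 on control arrays. The 6 tested markers of this list all had negative log2 differences, as had 5980 of all 7974 tests. Of the 6, 2 were called lower in gain larvae, against 3.47% of all tests. The gene ocn had log2 signals of 3.26, 2.98 and 3.36 on the gain arrays, against 5.35, 5.82 and 5.36 on the control arrays (limma adjusted p = 0.00337). The gene betaTub85D, a tubulin of the male germline, had 3.38, 3.95 and 3.54 on the gain arrays, against 4.98, 5.30 and 6.07 on the control arrays (limma adjusted p = 0.0287). All 3 gain arrays lay below the floor for both, so these 2 genes passed the filter through the control arrays alone. Their calls carry that limit, and their folds are not given.

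**Figure D4:**
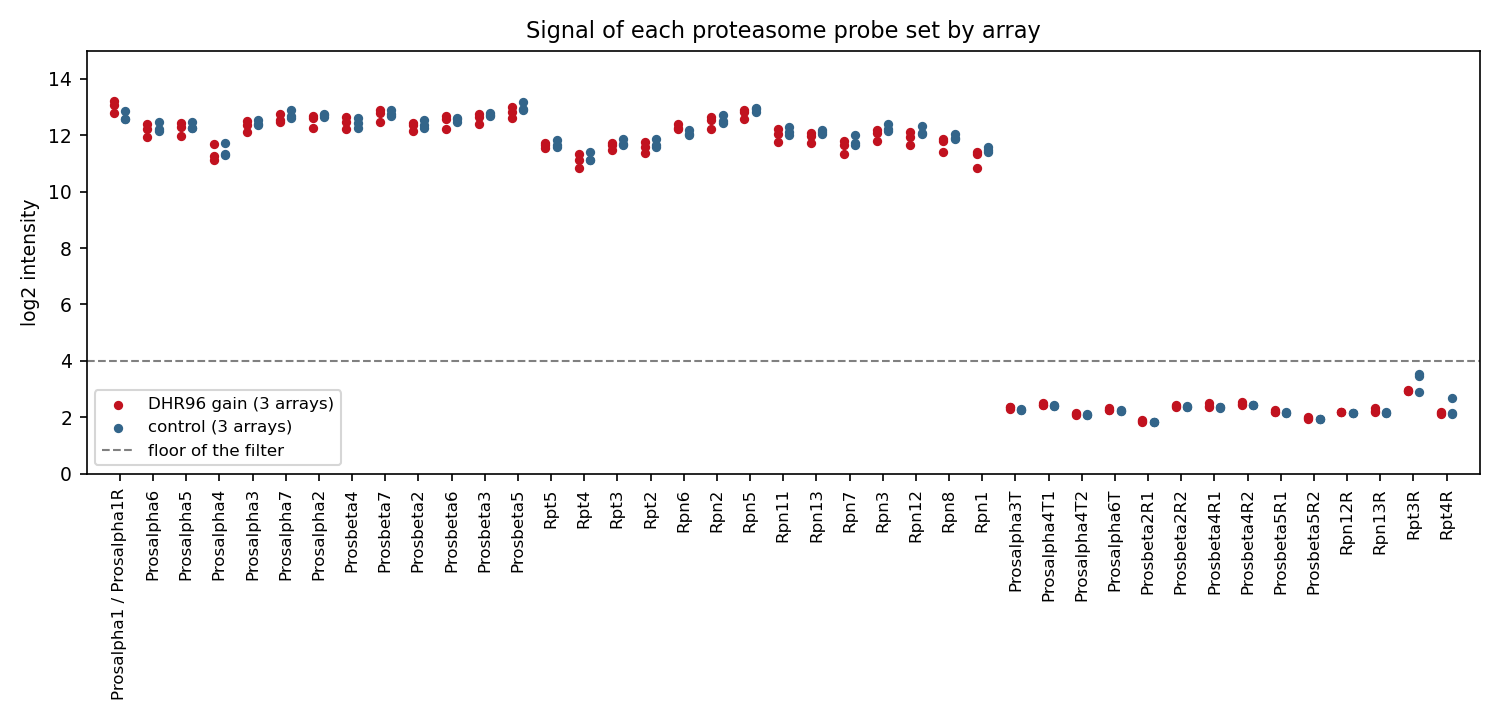
Log2 intensity of all 41 proteasome probe sets on every array, with gain arrays left of control arrays for each probe set and the floor of 4 as a dashed line. The 27 canonical probe sets lie between 10.84 and 13.20 and the 14 paralogues between 1.84 and 3.54 in both groups, and heights of different probe sets are not comparable.

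Genes that work with the proteasome were not called either. The 8 lists around the pathway, heat shock genes and other complexes among them, hold 118 genes. Of these 84 were tested and limma called none, against 3.93% of all tests. An unadjusted p under 0.05 was found for 5 of the 84, against 21.1% of all tests. Among proteasome assembly factors, activators, shuttles and deubiquitinases 12 of 14 were tested, with a median log2 difference of -0.11, and -0.005 without gain 2. PI31, which encodes a proteasome regulator, had a difference of -0.44 ± 0.27 (SE, limma adjusted p = 0.393), ntc, an F-box gene that in Drosophila works with PI31 in sperm maturation, -0.40, and Rad23, a shuttle for ubiquitinated proteins, -0.22. These 3 rested largely on gain 2, without which PI31 had -0.16, ntc -0.008 and Rad23 -0.11. Of the 3, only Rad23 had every gain array below every control array, as in 25.2% of all tests. Sem1 and Pomp were named for their roles and not for the size of their differences. Sem1, a small lid subunit whose symbol falls outside the member rule, had a log2 difference of 0.03 that ran from -0.06 to 0.13 with 1 array left out. Pomp, which matures the core particle, had -0.12, with a range from -0.24 to -0.002 with 1 array left out.

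Among ubiquitin, E1 and E2 genes 12 of 22 were tested, with a median of -0.07, and -0.009 without gain 2. The E2-family genes CG2924, CG10254 and vih had the largest log2 differences, at -0.45, -0.42 and -0.26 (limma adjusted p from 0.292 to 0.376), which became -0.23, -0.16 and -0.16 without gain 2. Ubi-p5E, a polyubiquitin gene singled out after its values were seen, had log2 signals of 13.11, 13.10 and 13.17 on the gain arrays, against 12.94, 12.98 and 12.79 on the control arrays. Its gain arrays all lay above its control arrays, as in 5.49% of all tests, and its difference of 0.22 ± 0.10 did not pass (limma adjusted p = 0.272). Of 10 listed genes of the TER94 segregase, which extracts ubiquitinated proteins for the proteasome, 8 were tested, with a median of -0.20, and -0.06 without gain 2. Ufd1, casp and Faf2, cofactors of that segregase, had differences of -0.48, -0.32 and -0.24, and of -0.19, -0.15 and -0.14 without gain 2. For these 3 genes every gain array lay below every control array, as in 25.2% of all tests.

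Of 14 genes around cnc 11 were tested, with a median log2 difference of 0.02. The gene cnc itself, named for its role, had log2 signals of 12.14, 12.12 and 12.09 on the gain arrays, against 12.11, 12.07 and 12.05 on the control arrays, a difference of 0.04 ± 0.09 (SE, n = 3 per group, limma adjusted p = 0.827). Gclc, the catalytic subunit of glutathione synthesis, had 13.08, 13.04 and 13.40 in gain larvae, against 12.82, 12.53 and 12.54 in control larvae. Its gain arrays all lay above its control arrays, as in 5.49% of all tests. Its difference of 0.54 ± 0.15 did not pass on the deposited scale (limma adjusted p = 0.102) but did under the 3 rescalings (limma adjusted p from 0.0233 to 0.0380). Keap1, the inhibitor of cnc, had 6.72, 5.64 and 6.92 in gain larvae, against 6.83, 7.07 and 6.92 in control larvae, a log2 difference of -0.51 that became -0.12 without gain 2. Cat, a catalase gene, had a difference of -0.29, with every gain array below every control array, as in 25.2% of all tests. Of 25 heat shock and chaperone genes 12 were tested, with a median of 0.11. CG7130, of the DnaJ family, had a log2 difference of 0.68 ± 0.14 (limma adjusted p = 0.058), which passed under the 3 rescalings, and stv, a co-chaperone gene, one of 0.22. Hsp68 had one of 0.24, which turned to -0.16 without control 3 and to -0.25 without gain 1.

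The subunits of 3 other complexes were set beside the proteasome. The COP9 signalosome, whose subunits resemble those of the proteasome lid, had 8 of 9 tested and a median log2 difference of -0.27, with CSN3, CSN7 and CSN1b at -0.38, -0.34 and -0.29, and at -0.25, -0.18 and -0.13 without gain 2. The eIF3 translation factor, also related to the lid, had 13 of 16 tested and a median of -0.17, with eIF3f1, eIF3c and eIF3a at -0.35, -0.34 and -0.32, and at -0.19, -0.20 and -0.22 without gain 2. The CCT chaperonin had 8 of 8 tested and a median of -0.14, with CCT7, CCT5 and CCT6 at -0.24, -0.17 and -0.16, and at -0.11, -0.10 and -0.07 without gain 2. None of these subunits passed limma (adjusted p of 0.203 and above), with 1 at an unadjusted p under 0.05 in the signalosome and 1 in eIF3. Every gain array lay below every control array for 2 subunits of the signalosome, 6 of eIF3 and 0 of CCT, against 25.2% of all tests. Without gain 2 the medians were -0.14 for the signalosome, -0.09 for eIF3 and -0.04 for CCT. The proteasome members' median of -0.12 on all arrays compares with -0.15 for all tests, and no test of the difference was made. The members are bright, and the order turned at like signal level. Between log2 means of 11 and 12 the median was -0.132 for members and -0.128 for all tests. Between 12 and 13 these medians were -0.117 and -0.098.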

How the data were processed

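The deposited table holds 1 linear intensity for each probe set on each array, computed by the authors with GCRMA, per the submitters' processing notes. Its version and the scanner are not given in the sources read. Log2 was taken with no pseudocount. Of 18952 probe sets 13647 had 1 gene in the platform annotation, 402 several and 4720 none listed, and 183 were array controls. Gene IDs tied 13544 of the 1-gene probe sets to current symbols in RefSeq's table (assembly Release 6 plus ISO1 MT). Gene starts in that table were used only to find neighbouring members, and no coordinate is printed.

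Probe sets at a log2 of 4 or more on at least 3 arrays were kept (8395), then the brightest of each gene, which left 7974 tests. The contrast of gain with control used limma 3.58.1 and R 4.3.3 (lmFit, eBayes, no covariate), called at an adjusted p under 0.05. Figures used Matplotlib 3.10.9. The fit was tested on simulated data. Members and lists were chosen with earlier results of these data known. Named members are the 3 largest differences and the smallest in each subcomplex, plus Rpn6; in pathway and marker lists, called genes and up to the 3 largest differences, with Ubi-p5E, Sem1, Pomp and cnc as exceptions. Centring arrays on the members, and leaving out the 2-gene probe set and Rpn6, were chosen after seeing the data. The number of arrays limits precision.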

Additional observations from a re-analysis of the deposited data

How the results depend on the processing

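No proteasome member was called with no filter, a floor of 6, quantile normalization, an intensity trend, robust eBayes, either treatment of several probe sets, a pseudocount of 16, the replicate block or any 1 array left out. The Prosalpha1/Prosalpha1R probe set was the 1 member called under median centring, median difference centring, centring on the members and without control 3 and gain 2 together (log2 difference 0.56, limma adjusted p = 0.0333, with 9.53% of tests called); array weights called 2, this probe set and Rpn6. Those weights stopped before convergence, from 0.137 for gain 2 to 7.44 for control 1, and called 2566 of all tests, or 32.2%. All tests gave 313 calls, 102 with no filter, 477 with median difference centring, 760 without control 3 and gain 2, and 39 to 425 with 1 array left out: 39 without control 1, 59 without control 2 and 135 without gain 1. Higher and lower calls were 36 and 277, but 201 and 252 under median centring, 158 and 278 under quantile normalization and 128 and 349 under median difference centring. The median of all tests moved to 0.10, 0.04 and -0.0009 under these 3.

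The members' median of -0.12 became 0.13 under median centring and 0.049 without control 3 and gain 2, and ran from -0.20 to -0.02 with 1 array left out. Its gap to all tests, 0.03, was -0.02 to 0.08 with 1 array left out and -0.12 with no filter. That setting adds the 14 dim paralogues to the members and raises the number of tests to 17105. The members' median was then -0.09 and that of all tests 0.03. The gap of regulatory and core medians, -0.0562, was -0.0410 under quantile normalization, -0.0771 with array weights and -0.0836 without control 3 and gain 2. With 1 array left out it ran from -0.0767 to -0.0479. Pathway genes called numbered 2 under quantile normalization, median centring and median difference centring (Gclc and CG7130), 14 with array weights, 1 (CG7130) with the replicate block, without control 3 and gain 2, or with centring on the members, and 0 to 1 with 1 array left out.

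These log2 differences, uncalled in every such setting, changed sign. Quantile normalization gave Prosbeta6 0.066, Prosbeta4 0.12, Rpt5 0.12, Rpt2 0.032, Prosalpha6 0.046, Rpt3 0.052, Rpn2 0.035 and Rpt4 0.037. Median centring gave Prosbeta3 0.12, Prosbeta6 0.19, Prosbeta4 0.24, Rpt5 0.19, Rpt2 0.11, Prosalpha6 0.17, Prosalpha7 0.11, Prosalpha2 0.044, Prosbeta5 0.053, Rpt3 0.13, Rpn2 0.16, Rpn12 0.013 and Rpt4 0.13. Median difference centring gave Prosbeta3 0.022, Prosbeta6 0.087, Prosbeta4 0.14, Rpt5 0.091, Rpt2 0.0042, Prosalpha6 0.066, Prosalpha7 0.013, Rpt3 0.026, Rpn2 0.061 and Rpt4 0.026. Array weights gave Prosbeta6 0.088, Prosbeta4 0.17, Rpt5 0.038, Prosalpha6 0.086, Rpn2 0.084 and Rpt4 0.021. Without control 3 and gain 2 they were Prosbeta3 0.0061, Prosbeta6 0.10, Prosbeta4 0.20, Rpt5 0.063, Rpt2 0.049, Prosalpha6 0.14, Prosalpha7 0.00798, Rpt3 0.014, Rpn2 0.11 and Rpt4 0.10. Centring on the members gave Prosbeta3 0.00054, Prosbeta6 0.065, Prosbeta4 0.12, Rpt5 0.069, Prosalpha6 0.044, Rpt3 0.0037, Rpn2 0.039 and Rpt4 0.0041. With 1 array left out Prosbeta4 ran from -0.10 to 0.11, Rpt5 from -0.10 to 0.012, Prosalpha6 from -0.19 to 0.045, Prosbeta6 from -0.16 to 0.073, Rpn2 from -0.17 to 0.034 and Rpt4 from -0.23 to 0.0087. The cause of these changes was not tested.

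The replicate block gave 258 calls and 0 members. Same-numbered samples had correlations of 0.21, 0.03 and 0.37 of their deviations from group means, and gain 1 correlated best with control 2, at 0.34, so the numbers were not taken as pairs.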
